A study of Homo sapiens with 2 samples.

Results

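The transcripts described here are the mRNAs of the 7 mitochondrially encoded subunits of complex I, MT-ND1, MT-ND2, MT-ND3, MT-ND4, MT-ND4L, MT-ND5 and MT-ND6. They were followed through an acRIP-seq experiment in A549, a human lung adenocarcinoma cell line. All peaks on the mitochondrial chromosome whose gene name begins with MT-ND were taken, which gave 10 of the 647 peaks listed for the whole experiment, and every one of the 7 genes had at least 1 peak. In acRIP-seq, fragmented RNA is pulled down with an antibody against N4-acetylcytidine (ac4C) and sequenced next to RNA that was not pulled down (the input). Stretches of a transcript where the pull-down exceeds the input are called peaks. Unedited A549 cells (the control, called WT) were compared with NAT10-KO, a single homozygous A549 clone in which CRISPR/Cas9 with a pair of guides had deleted part of NAT10, the enzyme that writes ac4C. There was 1 library of each, and the clone was one isolate that had passed through transfection, puromycin selection and single-cell dilution. Both lines shared the A549 background.

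Complex I (NADH:ubiquinone oxidoreductase) is the entry point of electrons from NADH into the respiratory chain, and it couples their transfer to the pumping of protons across the inner mitochondrial membrane. Its mitochondrially encoded subunits form the core of the membrane arm, whereas the other subunits are encoded in the nucleus and imported. Mitochondrial DNA is transcribed as long precursors from both strands, and the tRNAs that lie between the coding genes are cut out to release the mRNAs. MT-ND6 is the only one of these mRNAs that is read from the opposite strand. NAT10 is best known as a nucleolar enzyme that acetylates cytidine in 18S rRNA and in tRNAs.

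The deposited table gave 1 fold enrichment over input and 1 log2 fold change between the libraries for each peak, with no value for a single library, so levels in WT and in NAT10-KO cannot be printed side by side. A negative value is taken to mean less in NAT10-KO than in WT, and it is not stated whether the fold change was corrected for the amount of each transcript in the input. A change in the amount of an mRNA and a change in its ac4C therefore cannot be told apart. With 1 library per condition no difference had a replicate check, and each p-value below is the authors' p for a difference between these libraries, not between the conditions. The depth behind the peaks is unknown. NAT10 itself was not analysed here. Of the markers checked, KRT19 was the only one of 7 epithelial genes with a listed peak and CD68 the only one of 4 leukocyte genes, while none of 6 lung epithelial genes had one. Of all nuclear protein-coding genes in RefSeq, 2.08% had a listed peak. A listed peak is not a level of expression. The 3 KRT19 peaks had log2 fold changes from -0.72 to 0.50, of which 1 was lower with p under 0.05 (-0.72, p 3.98e-04), and the CD68 peak was lower (-1.26, p 9.77e-07). Of 7 genes of fibroblasts and smooth muscle, MYH11 and DES, which encode muscle proteins, had 10 peaks with log2 fold changes from -9.47 to -2.58, 6 of them with p under 0.05. Over all 647 listed peaks, 23.3% were lower with p under 0.05. The part of these markers in the values of the MT-ND peaks was not tested.

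Most of the complex I mRNA peaks were lower in NAT10-KO than in WT, by a modest amount. A peak was called lower or higher when its log2 fold change was under or over 0 and the p of the difference was under 0.05. By this rule 8 of the 10 peaks were lower, on 6 of the 7 genes, beside 23.3% of all 647 listed peaks. The other 2 were higher, on MT-ND3 and in the middle of MT-ND5, beside 30.3% of all listed peaks, and the one in MT-ND5 turned below 0 when the values were centred on the median of all listed peaks. The median log2 fold change of the 10 peaks was -0.24, with a range from -0.60 to 0.14, and the median over all listed peaks was 0.048. No MT-ND peak had an absolute log2 fold change over 1, whereas 18.7% of all listed peaks lay under -1 and 17.5% over 1. By sign alone, 8 of the 10 were below 0, beside 46.7% of all listed peaks, and 2 were above 0, beside 51.6%. With the authors' adjusted p (FDR) under 0.05 instead, 8 MT-ND peaks were lower, beside 20.1% of all listed peaks, and 1 was higher, beside 27.5%.

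**Figure D1:**
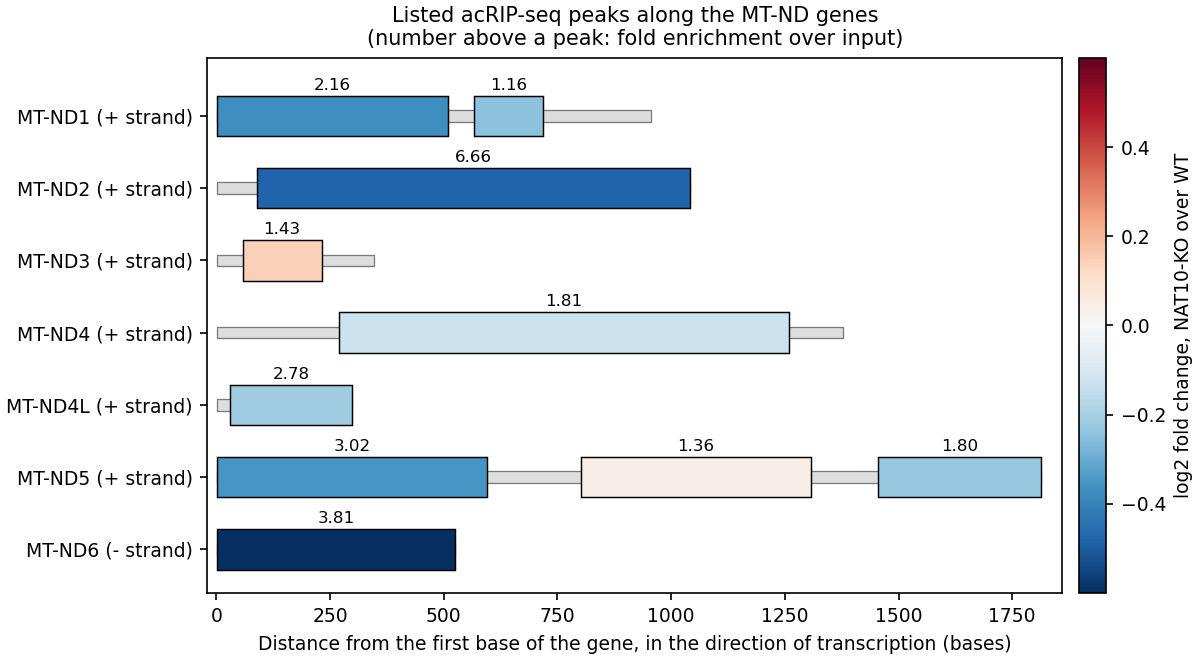
Peaks listed for the 7 MT-ND genes. Each row is a gene drawn to scale as a grey bar from its first base in the direction of transcription (x axis, bases), each box is a peak coloured by its log2 fold change (NAT10-KO over WT; blue lower, red higher), and the number above it is the fold enrichment over input. The deepest blue boxes are MT-ND6 (-0.60) and MT-ND2 (-0.48), and the 2 boxes in red tones are MT-ND3 (0.14) and the middle peak of MT-ND5 (0.039).

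All 10 peaks lay in the coding sequence, consisted of 1 block each and stayed inside the gene as RefSeq places it in GRCh38.p14, the source of the gene positions used here. The same held for the 7 peaks on other mitochondrial protein-coding genes, so it does not set the MT-ND peaks apart. Together the MT-ND peaks covered 5023 of the 6356 bases of the 7 MT-ND genes (79.0%), where the 7 bases that MT-ND4L and MT-ND4 share are counted for both. Coverage ran from 50.3% of MT-ND3 to the whole of MT-ND6. The MT-ND peaks were long, with a median of 506.5 bases and a range from 150 to 989, beside a median of 208 bases over all listed peaks with introns left out. Length was not particular to complex I. The other mitochondrial peaks had a median of 457 bases (148 to 894), and those on protein-coding genes alone a median of 323. A total of 3 MT-ND peaks began on the first base of their gene (MT-ND1, MT-ND5 and MT-ND6) and 4 ended on the last base (MT-ND2, MT-ND4L, MT-ND5 and MT-ND6). The edges of these peaks are thus edges of the gene model, and none of the 22 mitochondrial tRNA genes that flank the coding genes had a listed peak. The shortest of all 647 listed peaks had 109 bases, and the lengths of the tRNA genes were not set against this. That count of 0 is therefore not a result about the tRNAs.

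MT-ND2, MT-ND4 and MT-ND5 encode the large subunits that resemble sodium/proton antiporters and carry most of the proton channels. MT-ND2 (ENSG00000198763) had 1 peak on the plus strand from 4559 to 5511, which covered 91.5% of the gene and left out its first 89 bases. Its fold enrichment over input was 6.66, the highest of the 10 peaks, and 105 of the 647 listed peaks had a higher one. The log2 fold change of MT-ND2 was -0.48, so that the value in NAT10-KO was 71.7% of that in WT. Its log10 p of the difference was -434, the lowest value the column reaches, which 3 listed peaks share, and it is therefore a limit of the calculation and not a measured p. MT-ND2 thus combined the strongest pull-down of the complex I mRNAs with the second lowest fold change.

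MT-ND4 (ENSG00000198886) had 1 peak from 11029 to 12017, the longest of the 10 at 989 bases, which left out the first 269 and the last 120 bases of the gene. Its fold enrichment was 1.81 and its log2 fold change was -0.13, or 91.4% of the WT value, with a log10 p of the difference of -36.5. This was the smallest change among the 8 lower peaks. MT-ND5 (ENSG00000198786) had 3 peaks, which did not move together. The peak over its first 595 bases, from 12337 to 12931, was enriched 3.02-fold, with a log2 fold change of -0.36 (78.1% of the WT value). The middle peak, from 13139 to 13643, was enriched 1.36-fold, its log2 fold change was 0.039 (102.7% of the WT value), with a difference p of 0.044 and an adjusted p of 0.076. The last peak, from 13792 to 14148, was enriched 1.80-fold, with a log2 fold change of -0.23 (85.3% of the WT value). Within MT-ND5 the log2 fold change therefore differed by 0.40 between the first and the middle peak, which lie 207 bases apart, and this difference within the gene was not tested. The middle peak lay below 0 when the median of all listed peaks (0.048) or of the peaks on other chromosomes (0.067) was set as 0.

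MT-ND1 encodes the subunit that closes the ubiquinone-binding cavity where the membrane arm meets the arm in the matrix. MT-ND1 (ENSG00000198888) had 2 peaks. The peak from 3307 to 3814 covered its first 508 bases and was enriched 2.16-fold, with a log2 fold change of -0.38 (77.1% of the WT value), with a log10 p of the difference of -166. The second peak, from 3874 to 4023, began 59 bases further on and was enriched 1.16-fold, with a log2 fold change of -0.25 (84.3% of the WT value), with a log10 p of -18.7. The fold enrichment of 1.16 was the lowest of the 10 peaks and among the lowest in the table, since 641 of 647 listed peaks were higher. In both MT-ND genes with several peaks, MT-ND1 and MT-ND5, the peak at the 5′ end of the mRNA had the highest fold enrichment and the lowest log2 fold change of its gene. This was not particular to complex I, since MT-CYB showed it too (2.05-fold and -0.28, then 1.17-fold and -0.047). In MT-CO1 the 5′ peak was the more enriched (1.87-fold against 1.59-fold) but not the lower in log2 fold change (-0.0563 against -0.0985).

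MT-ND3, MT-ND4L and MT-ND6 encode small subunits that link MT-ND1 to the antiporter-like subunits. MT-ND3 (ENSG00000198840) had 1 peak of 174 bases, from 10116 to 10289, with a fold enrichment of 1.43. Its log2 fold change was 0.14 (110.3% of the WT value), with a difference p of 3.02e-04 and an adjusted p of 0.00105, and it was the highest value among all 20 mitochondrial peaks. MT-ND4L (ENSG00000212907) is the next coding gene on the same strand and had 1 peak from 10500 to 10766, 210 bases downstream. The peak of MT-ND4L was enriched 2.78-fold, with a log2 fold change of -0.21 (86.4% of the WT value), with a log10 p of the difference of -18.9. MT-ND4L and MT-ND4 share a single mature mRNA, and their peaks were 262 bases apart and 0.081 apart in log2 fold change.

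MT-ND6 (ENSG00000198695) was the only one of the 7 genes on the minus strand. Its single peak, from 14149 to 14673, covered all 525 bases of the gene. The fold enrichment of MT-ND6 was 3.81, second to MT-ND2, and 162 listed peaks had a higher one. Its log2 fold change of -0.60 (66.2% of the WT value) was the lowest of all 20 mitochondrial peaks, with a log10 p of the difference of -171. The peak of MT-ND6 begins on the base after the last MT-ND5 peak ends, on the other strand, with 0 bases between them, while the log2 fold changes of the pair were -0.60 and -0.23. The sources used here do not say whether reads were counted by strand, so reads from MT-ND6 and from RNA antisense to it cannot be told apart. Across the whole table, 336 of 647 listed peaks (51.9%) had a larger absolute log2 fold change than MT-ND6.

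**Figure D2:**
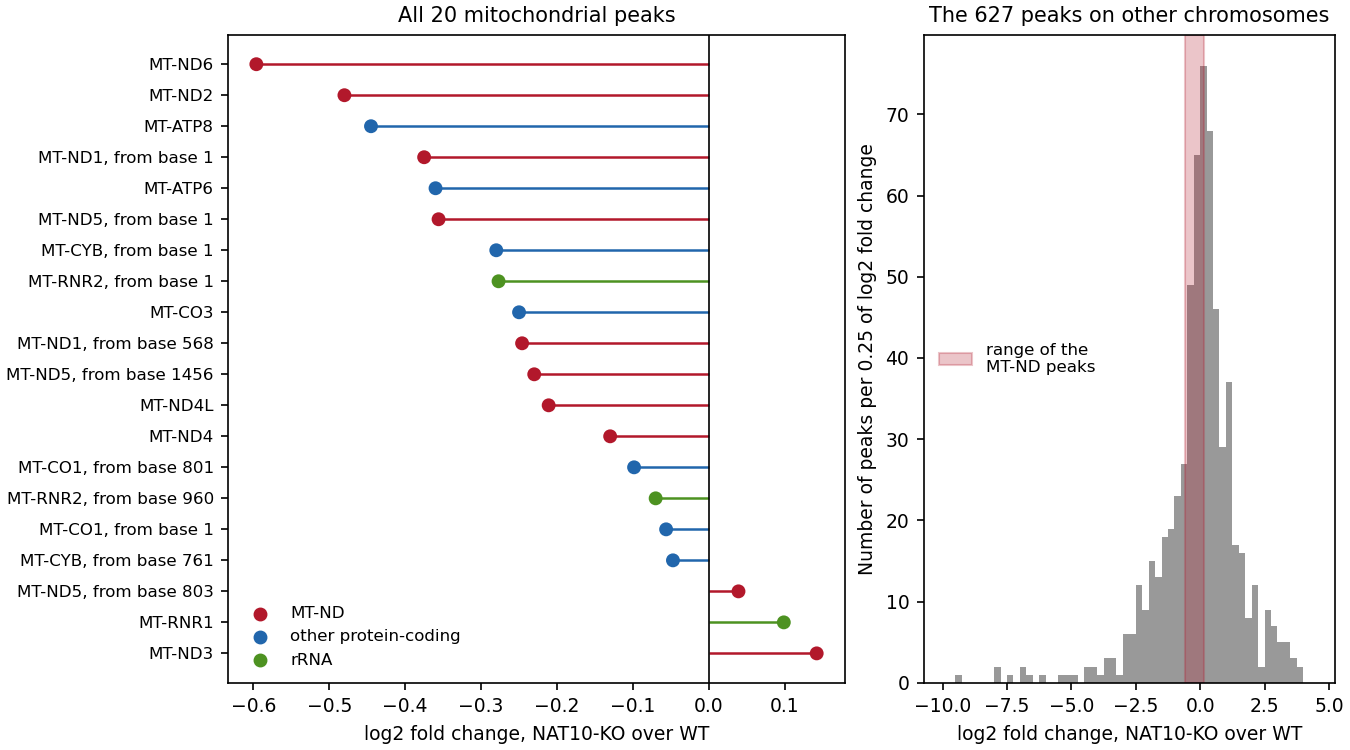
Change after NAT10 knockout. Left, the log2 fold change (NAT10-KO over WT, x axis) of each of the 20 mitochondrial peaks, with MT-ND peaks in red, other protein-coding genes in blue and rRNA in green; genes with several peaks are labelled by the first base of the peak in the gene. Right, a histogram of the 627 peaks on other chromosomes with the range of the MT-ND peaks shaded, which is narrow (-0.60 to 0.14) beside the full spread from -9.47 to 3.99.

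The other mitochondrial rows were 10 peaks on 7 genes, of which 7 peaks lay on protein-coding genes (MT-CYB, MT-CO1, MT-CO3, MT-ATP6 and MT-ATP8) and 3 on the rRNA genes MT-RNR1 and MT-RNR2. With the MT-ND genes, 12 of the 13 protein-coding genes of the mitochondrial chromosome had a listed peak. By the p of the difference, 9 of these 10 other peaks were lower and 1 was higher, against 8 and 2 of the MT-ND peaks. Over all listed peaks the shares were 23.3% lower and 30.3% higher. The log2 fold change of the other mitochondrial peaks ran from -0.45 at MT-ATP8 to 0.099 at MT-RNR1, inside the range of the MT-ND peaks. Their median was -0.17, so that the MT-ND median minus theirs was -0.064. The 7 protein-coding peaks alone had a median of -0.25, and against these the difference was 0.012. The sign of the difference thus depended on whether the rRNA peaks were counted, and no test of it was possible over samples. The change was not shown to be particular to complex I.

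The rRNA peaks stood far above the mRNA peaks in enrichment. Fold enrichment was 55.2 at MT-RNR1 and 11 and 17.1 at the MT-RNR2 peaks, while the peaks on mitochondrial mRNAs ran from 1.16 to 6.66. The authors removed rRNA after the pull-down, and the effect of that step on the rRNA values was not tested. The median fold enrichment was 1.99 for the MT-ND peaks, 1.59 for the other protein-coding mitochondrial peaks and 2.24 for all listed peaks. MT-ND2 and MT-ND6 had the highest values of all mitochondrial mRNAs, followed by MT-ND5 at its 5′ end and MT-ND4L, and the highest outside complex I was MT-ATP6 with 2.53. A total of 5 MT-ND peaks were enriched by less than a factor of 2. The p of the enrichment was nevertheless small at each of them, with a log10 p from -1380 at MT-ND4 to -84.7 at the second MT-ND1 peak.

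Among the 10 MT-ND peaks, those with more enrichment over input tended to have the lower fold change, with exceptions. The 5 peaks with a fold enrichment over 2 had log2 fold changes from -0.60 to -0.21 with a median of -0.38, and the 5 peaks under 2 had values from -0.25 to 0.14 with a median of -0.13. The ranges of both sets of peaks overlapped: MT-ND4L was enriched 2.78-fold with a log2 fold change of -0.21, above the least enriched peak, the second of MT-ND1 (1.16-fold, -0.25), and MT-ND6 lay below the more enriched MT-ND2. Spearman's rank correlation of the 2 measures was -0.70 over the MT-ND peaks, and -0.43 without MT-ND2 and MT-ND6. It was 0.18 over the other mitochondrial peaks, -0.32 over the protein-coding ones among these, and -0.12 over all listed peaks. The comparison is a description without a test, since the peaks come from the same libraries and 5 of the 10 share a gene with another peak. Both measures also draw on the same pull-down reads, and whether the fold change used the input reads too is not stated.

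**Figure D3:**
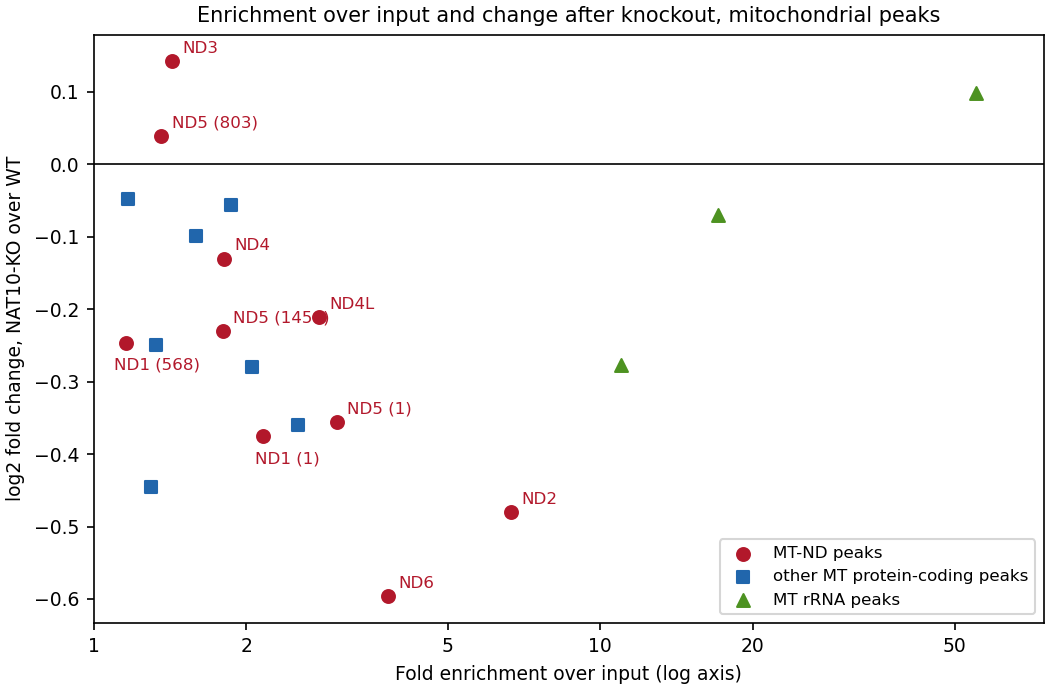
Fold enrichment over input (x axis, log scale) and log2 fold change between NAT10-KO and WT (y axis) of the 20 mitochondrial peaks, with MT-ND peaks as labelled red circles (in brackets, the first base of the peak in the gene), other protein-coding genes as blue squares and rRNA as green triangles. The most enriched red points, MT-ND2 (6.66, -0.48) and MT-ND6 (3.81, -0.60), are also the lowest, but the least enriched, the second MT-ND1 peak (1.16, -0.25), lies below MT-ND3 (1.43, 0.14), MT-ND4 (1.81, -0.13) and MT-ND4L (2.78, -0.21), and the rRNA points lie to the right with values from -0.28 to 0.099.

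Small changes had small p-values on the mitochondrial chromosome. All 10 MT-ND peaks and all 10 other mitochondrial peaks passed the threshold of 0.05 for the difference. The same held for 347 of all 647 listed peaks and for 327 of the 627 on other chromosomes. Of the 627 peaks on other chromosomes, 291 had an absolute log2 fold change of at most 0.596, the largest among the MT-ND peaks, and 94 of these 291 had a p of the difference under 0.05, of which 30 were lower and 64 higher. The median log10 p of the enrichment was -1645 at the MT-ND peaks and -8.1 at the peaks on other chromosomes. The log10 p of the difference was under -100 at 9 listed peaks, of which 7 were mitochondrial and 3 were the peaks of MT-ND1 (the first), MT-ND2 and MT-ND6. A p of this kind depends on the number of reads as well as on the size of a change, and read counts were not used here.

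**Figure D4:**
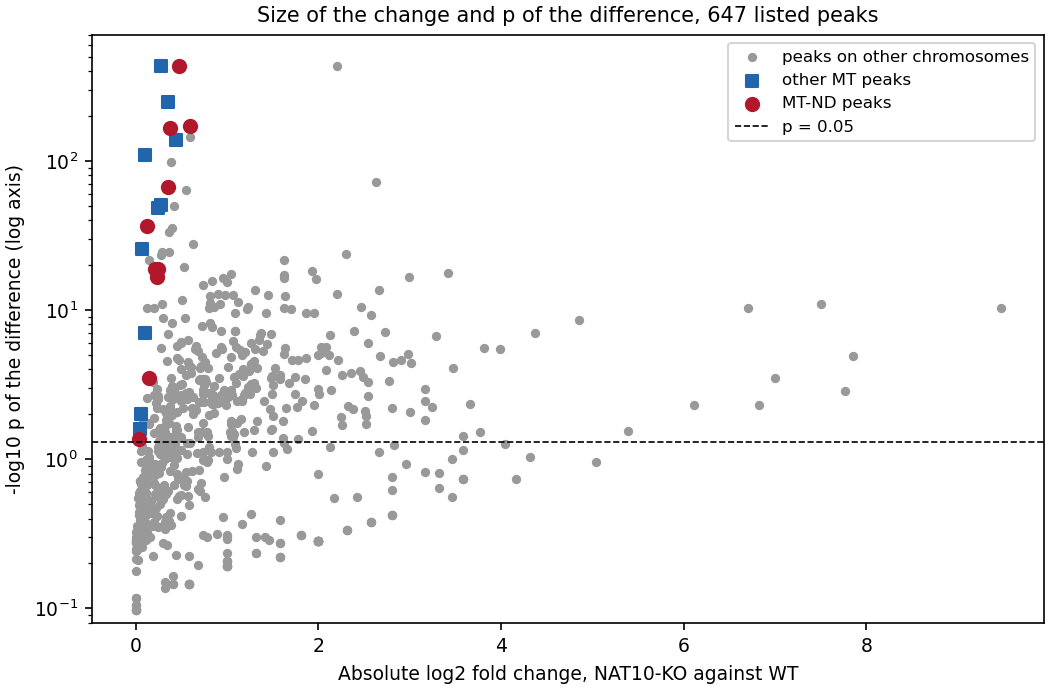
Absolute log2 fold change between NAT10-KO and WT (x axis) and -log10 p of the difference (y axis, log scale) of all 647 listed peaks, with MT-ND peaks in red, other mitochondrial peaks in blue and peaks on other chromosomes in grey; the dashed line marks the threshold of 0.05 used for calls. All 20 mitochondrial peaks lie above the line and to the left of 0.60 on the x axis, and MT-ND2 lies at the limit of the column, 434.

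The nuclear genome carries copies of mitochondrial genes, which can take up reads of the mitochondrial transcripts. The rows with such names were looked up after the values of the MT-ND peaks had been seen. MTND2P28 (ENSG00000225630), a pseudogene copy of MT-ND2 on chromosome 1, had 2 listed peaks. The peak from 629640 to 629849 covered the first 210 bases of the copy, enriched 2.65-fold with a log2 fold change of -0.25 (p of the difference 0.048, adjusted p 0.083). The peak from 630445 to 630594, over bases 806 to 955 of the copy, was enriched 1.85-fold with a log2 fold change of -0.32 (p of the difference 0.456). Both values had the sign of MT-ND2, where the peak leaves out the first 89 bases of the gene. MTATP6P1, a copy of MT-ATP6 in the same stretch of chromosome 1, was enriched 4.56-fold with a log2 fold change of -0.42 (p of the difference 3.16e-50, adjusted p 1.26e-48). How reads that fit both places were assigned is not given in the sources used here, so the values of MT-ND2 and MTND2P28 are uncertain to that extent. MTRNR2L12, a copy of MT-RNR2 sequence on chromosome 3, was enriched 12.4-fold and had a positive log2 fold change of 0.39 (p of the difference 0.433). No listed peak lay on MTND1P23, MTCO1P12, MTCO2P12 or MTATP8P1, further copies in the stretch of chromosome 1 that were looked up by name.

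None of the 37 nuclear genes for complex I subunits and none of 17 genes for its assembly factors had a listed peak. Of all nuclear protein-coding genes in RefSeq, 2.08% had one, so that counts of 0 in lists of this size are close to the background and are not a result about these genes. A gene without a listed peak may be unmodified, weakly expressed or below the thresholds of the peak calling, and these cannot be told apart here. Of 24 genes for the synthesis and upkeep of mitochondrial RNA, 2 had listed peaks. LRPPRC, which binds and stabilises mitochondrial mRNAs, had 2 peaks in the coding sequence, with log2 fold changes of 1.13 (p of the difference 1.82e-04) and 0.048 (p of the difference 0.404). GRSF1, a protein of the mitochondrial RNA granules, had 1 peak, whose log2 fold change was 0 (p of the difference 0.574). Thus 1 of the 3 peaks was higher and none was lower, beside 30.3% and 23.3% of all listed peaks, from which 3 peaks cannot be set apart.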

How the data were processed

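acRIP-seq was made from 1 WT and 1 NAT10-KO A549 library. The authors pulled down total RNA with an ac4C antibody, removed rRNA, sequenced and annotated peaks. STAR 2.7.10a and hg38 are named in the submitters' processing notes. The peak caller is not given in the sources used here. The authors deposited, for each peak, the fold enrichment over input as a ratio, its p-value, the log2 fold change between libraries, and log10 p and FDR columns, held here as scores. 0 per-sample columns were left out. These comparison values are the authors' and were copied. Starts were read as counted from 0 and are printed counted from 1. Only then did the lower coordinate of any MT-ND peak (3 of 10) match the lower coordinate of its gene. The direction was taken from the genes that the study lists as reduced, all of which have a peak under -1. Every MT-ND peak was reported, other mitochondrial peaks as ranges and counts, and listed genes of the complex I and mitochondrial RNA lists by name. Members and lists were chosen with earlier results of these data known. Gene positions came from RefSeq (GRCh38.p14). No mitochondrial sequence was used here, so no base composition or motif was computed. The counting was tested on simulated data. No test over samples was possible. Scripts ran in Python 3.11.15 with pandas 2.3.3, scipy 1.17.1, numpy 2.4.6 and matplotlib 3.10.9.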

Additional observations from a re-analysis of the deposited data

How the results depend on the processing

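Of 48 alternatives, 25 left the value as it was, within 1.5 times for a count or within a Wilson interval for a share of a gene. Some of these 25 were fixed in advance. Every MT-ND peak had 1 block, no peaks of 1 gene overlapped, and every mitochondrial peak had p under 0.05. Counting starts from 1 could move the share of a gene by at most 1 base per peak. The count of 25 is therefore no measure of stability. The number of lower MT-ND peaks was 8 or 9 of the 10, and 6 of 7 with 1 peak per gene. The number of higher ones became 1 with the adjusted p, with p under 0.01, with 1 peak per gene and with 0 set at the median of all or of nuclear peaks. With a mean weighted by length in place of the median, the log2 fold change was -0.29. The median became -0.36 with 1 peak per gene, -0.21 from gene means, -0.29 centred on all peaks and -0.31 centred on nuclear peaks. The MT-ND minus other mitochondrial difference became -0.13 between the weighted means, -0.11 with 1 peak per gene and -0.037 from gene means. It became -0.056 without MT-ND6, and 0.012, with the sign turned, against protein-coding genes only. A mean weighted by length, taken on the log2 scale, gave a fold enrichment of 2.64. The median fold enrichment became 2.78 with the longest peak per gene and 1.95 from gene means. Its ratio to the other mitochondrial peaks, 1.01, became 1.36 and 1.13 in the last 2 settings and 1.25 against protein-coding genes only. The ratio turned to the other side of 1 between the weighted means (0.429) and without MT-ND6 (0.923). The cause was not tested. Base composition under the peaks was not run, for want of the sequence. No replicate could be left out. No paired analysis was possible because WT and NAT10-KO had 1 library each. Without read counts, no interval could be given for a fold change.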
